A study of Mus musculus with 12 samples.

Results

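The 10 genes described here encode enzymes of the urea cycle (Cps1, Otc, Ass1, Asl and Arg1) and of the methionine cycle with its exits (Mat1a, Mat2a, Gnmt, Bhmt and Cbs). Each gene was read from probe sets that the array's annotation pairs with that gene symbol alone, and the probe set with the highest mean signal stood for the gene. By this rule 8 of the 10 genes were measured, out of 16244 genes in all. The 2 probe sets of Ass1 are also listed with a second gene, Gm5424, and no probe set is listed with Mat2a alone, so Ass1 and Mat2a were not analysed here.

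Adrenal gland RNA came from male C57Bl/6J mice aged 21 weeks that had been fasted overnight, in 4 groups named ASP+CGP, ASP, CGP and CON. ASP+CGP mice received aspartame and CGP 39551, ASP mice received aspartame alone, CGP mice received CGP 39551 alone and CON mice received neither. Aspartame, a sweetener built from aspartic acid and phenylalanine, was dissolved in the drinking water to give 46 mg per kg, first to the dam and then to the offspring until the end of the study. CGP 39551, which competes with glutamate at NMDA receptors, was also given by mouth in the water, at 5 mg per kg from conception until postnatal day 28, through the dam. All mice of a group contributed RNA to a single pool, of which 3 arrays were run, so the study holds 12 arrays. The arrays of a pool are technical repeats, so every error and p-value below measures the spread between arrays of 1 pool and not between mice, and the effect of a treatment cannot be told apart from a difference between pools.

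The urea cycle disposes of ammonia. Carbamoyl phosphate synthetase (Cps1) and ornithine transcarbamylase (Otc) work in mitochondria, and argininosuccinate synthase (Ass1), argininosuccinate lyase (Asl) and arginase (Arg1) complete the cycle in the cytosol. In the methionine cycle, S-adenosylmethionine is made by Mat1a in adult liver and by Mat2a in most other tissues, Gnmt consumes it by methylating glycine, Bhmt returns homocysteine to methionine with a methyl group from betaine, and cystathionine beta-synthase (Cbs) commits homocysteine to cysteine synthesis. The whole urea cycle is known chiefly from the liver, where the Mat1a, Gnmt and Bhmt proteins are also abundant.

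Promoter sequences are shown for Otc, Gnmt, Bhmt and Cbs, the 4 measured enzymes with an entry in the RefSeq promoter table (build GRCm38.p6). A link between these sequences and the signals below was not tested. Each run covers the 250 bases before the start of the gene, in the direction of transcription, and capitals mark matches to any of the 7 motifs searched on both strands, so a match on the opposite strand reads as its reverse complement (ATTGG for CCAAT).
Otc, chrX:10252055-10252304, plus strand: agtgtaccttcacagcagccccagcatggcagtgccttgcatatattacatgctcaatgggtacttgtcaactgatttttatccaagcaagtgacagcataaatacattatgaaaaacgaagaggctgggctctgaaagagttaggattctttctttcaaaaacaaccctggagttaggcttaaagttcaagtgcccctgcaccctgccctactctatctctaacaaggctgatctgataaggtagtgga
Gnmt, chr17:46729166-46729415, minus strand: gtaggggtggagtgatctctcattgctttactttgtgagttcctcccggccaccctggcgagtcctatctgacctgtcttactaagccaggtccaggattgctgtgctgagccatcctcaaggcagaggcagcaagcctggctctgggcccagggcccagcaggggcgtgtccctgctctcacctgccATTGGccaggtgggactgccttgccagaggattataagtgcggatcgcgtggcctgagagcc
Bhmt, chr13:93637759-93638008, minus strand: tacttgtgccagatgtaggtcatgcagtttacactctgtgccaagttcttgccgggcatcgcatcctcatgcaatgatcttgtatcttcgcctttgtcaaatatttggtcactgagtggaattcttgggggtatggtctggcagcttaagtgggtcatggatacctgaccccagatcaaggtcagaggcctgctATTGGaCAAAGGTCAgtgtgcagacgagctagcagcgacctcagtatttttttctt
Cbs, chr17:31637206-31637455, minus strand: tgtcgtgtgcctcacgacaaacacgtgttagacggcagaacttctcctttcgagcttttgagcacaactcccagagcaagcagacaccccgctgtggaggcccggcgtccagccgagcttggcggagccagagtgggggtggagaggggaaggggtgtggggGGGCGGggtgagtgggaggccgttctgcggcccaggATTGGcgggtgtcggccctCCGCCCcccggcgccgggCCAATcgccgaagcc

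The Cbs window stood out by its base composition, with 21 CpG dinucleotides and 68.0% G+C, at percentile 85.2 for CpG number among all 32851 windows of this length. The Gnmt window held 6 CpG, the Bhmt window 5 and the Otc window 1, against a median of 6 over all windows (quartiles 2 and 16). CCAAT, which 33.8% of all windows hold, began 62 bases before the start in Gnmt and 56 bases before it in Bhmt, and in Cbs it lay at 15 and 52 bases. The Bhmt window also held TGACCTTTG, a nuclear receptor element present in 0.426% of windows, 50 bases before the start and without overlap with its CCAAT match. Cbs held GGGCGG, the GC box found in 32.7% of windows, at 88 and 33 bases. None of the 4 windows held TATAAA (12.4% of windows), TTGCNNAA (9.56%), CAAAGTCCA (0.383%) or TGACGTCA (1.55%), and the Otc window held none of the 7 motifs. A match describes the letters only.

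The signals are log2 values that the authors normalised by RMA, and array medians lay between 7.84 and 7.94. Across probe sets, r was 0.989 to 0.995 between arrays of 1 pool, 0.960 to 0.978 between ASP+CGP and CON, 0.926 to 0.934 between ASP and CON and 0.990 to 0.993 between CGP and CON. The interquartile range of the signals was narrower in ASP+CGP (2.20 to 2.29) than in CON (2.58 to 2.62). Markers of the labelled gland were bright in every pool, with mean signals of Cyp11a1, the first enzyme of steroid synthesis, between 13.47 and 13.57 and of Th, which makes catecholamine precursors, between 12.97 and 13.39. A second normalisation of the arrays by cyclic loess raised the median difference of all genes by 0.11 in ASP against CON, by 0.17 in ASP+CGP against CON and by 0.18 in ASP+CGP against CGP, so the median of the enzymes is given beside that of all genes in each comparison below.

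The enzymes of the urea cycle shared an order over the 4 pools where they were bright. Cps1 (probe set 10347117, Entrez gene 227231), which makes carbamoyl phosphate from ammonia, had log2 signals of 8.36, 8.47 and 8.38 on the ASP+CGP arrays, 8.74, 8.78 and 8.78 on the ASP arrays, 10.70, 10.77 and 10.67 on the CGP arrays and 9.87, 9.87 and 9.92 on the CON arrays. Asl (probe set 10534120, Entrez gene 109900), which releases arginine and fumarate, had signals of 9.22, 9.26 and 9.11 on the ASP+CGP arrays, 9.27, 9.32 and 9.28 on the ASP arrays, 10.15, 10.27 and 10.17 on the CGP arrays and 9.80, 9.93 and 10.01 on the CON arrays. Arg1 (probe set 10368343, Entrez gene 11846), which splits arginine into urea and ornithine, had signals of 7.18, 7.12 and 6.91 on the ASP+CGP arrays, 7.42, 7.41 and 7.44 on the ASP arrays, 9.12, 9.14 and 9.14 on the CGP arrays and 8.28, 8.37 and 8.45 on the CON arrays. For Cps1, Asl and Arg1 the order from low to high was ASP+CGP, ASP, CON and CGP, and no array of a group reached the range of the next, although for Asl the highest ASP+CGP array and the lowest ASP array were 9.26 and 9.27. Otc (probe set 10598612, Entrez gene 18416), which joins carbamoyl phosphate to ornithine, was dim, with signals of 5.41, 5.16 and 5.36 on the ASP+CGP arrays, 5.02, 5.06 and 5.18 on the ASP arrays, 6.64, 6.998 and 6.58 on the CGP arrays and 5.54, 5.71 and 5.45 on the CON arrays. Only the CGP arrays of Otc were above 6, the level under which a group mean was treated as not measured, and its ASP+CGP and ASP arrays overlapped.

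Among the enzymes of the methionine cycle, Mat1a, Gnmt and Bhmt followed the same order as Cps1, Asl and Arg1, and Cbs did not. Mat1a (probe set 10414192, Entrez gene 11720), which makes S-adenosylmethionine, had log2 signals of 9.73, 9.75 and 9.71 on the ASP+CGP arrays, 10.04, 10.15 and 10.11 on the ASP arrays, 12.07, 12.09 and 12.02 on the CGP arrays and 11.51, 11.53 and 11.47 on the CON arrays. Gnmt (probe set 10451451, Entrez gene 14711), the glycine methyltransferase, had signals of 8.46, 8.51 and 8.47 on the ASP+CGP arrays, 8.82, 8.92 and 8.98 on the ASP arrays, 10.66, 10.81 and 10.55 on the CGP arrays and 9.64, 9.69 and 9.78 on the CON arrays. Bhmt (probe set 10457114, Entrez gene 12116), the betaine-dependent methyltransferase, had signals of 9.46, 9.66 and 9.50 on the ASP+CGP arrays, 9.74, 9.96 and 9.85 on the ASP arrays, 11.95, 11.82 and 11.85 on the CGP arrays and 10.96, 10.91 and 10.97 on the CON arrays. The groups of each of these 3 enzymes did not overlap, with ASP+CGP lowest, then ASP, CON and CGP. Among all 15900 genes tested, 4.55% had 4 groups without overlap, and 1.38% had them in this order. Cbs (probe set 10449712, Entrez gene 12411) had signals of 8.15, 8.05 and 8.04 on the ASP+CGP arrays, 8.54, 8.55 and 8.66 on the ASP arrays, 8.96, 9.08 and 9.01 on the CGP arrays and 8.44, 8.51 and 8.49 on the CON arrays. Here ASP+CGP was again lowest and CGP highest, but CON lay under ASP, and although the groups did not overlap, the lowest ASP array (8.54) and the highest CON array (8.51) were close.

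**Figure D1:**
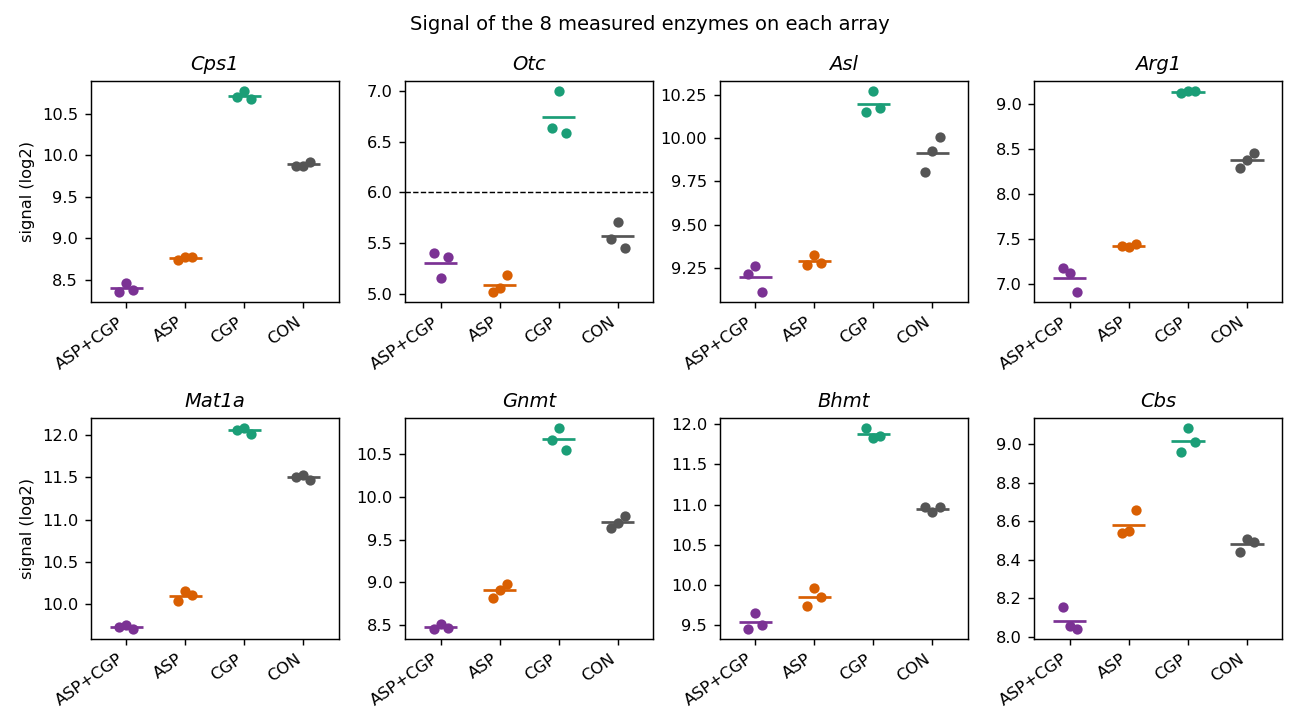
Log2 signal (y axis) of the 8 measured enzymes on each array, in ASP+CGP, ASP, CGP and CON (x axis, 3 arrays of 1 pool each). Points are arrays, horizontal bars are group means and the dashed line in the Otc panel is a signal of 6; Cps1, Asl, Arg1, Mat1a, Gnmt and Bhmt share the order ASP+CGP, ASP, CON, CGP from low to high, while Cbs in ASP lay above CON.

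Aspartame alone was set against CON to ask what chronic exposure did to these enzymes. Of the 7 enzymes with a mean of at least 6 in every group, 6 fell in ASP glands: Cps1, Asl, Arg1, Mat1a, Gnmt and Bhmt. A gene was called at a limma adjusted p under 0.05 and a fold of at least 1.4, and 8.13% of all 15900 genes tested were called lower, 9.81% higher and 17.9% in either direction. The publication names Cps1, Arg1, Mat1a and Bhmt among genes it picked on these arrays, so the count is not independent evidence of a direction. Mat1a fell furthest, by 2.65-fold (log2 difference -1.40 ± 0.053, standard error, adjusted p = 1.16e-11), and it was the 6th lowest difference of all genes. Cps1 was 2.18-fold lower (-1.12 ± 0.054, adjusted p = 2.02e-10), Bhmt 2.14-fold lower (-1.10 ± 0.070, adjusted p = 5.70e-09) and Arg1 1.93-fold lower (-0.95 ± 0.069, adjusted p = 2.73e-08). Gnmt was 1.74-fold lower (-0.80 ± 0.070, adjusted p = 2.35e-07) and Asl 1.54-fold lower (-0.62 ± 0.065, adjusted p = 1.58e-06). Cbs differed by 0.10 ± 0.059 (95% interval -0.03 to 0.23, adjusted p = 0.165) and was not called, and after cyclic loess this difference was 0.27, also without a call. The median difference of the 7 enzymes was -0.95, beside -0.10 for all genes tested and -0.18 for the 8256 genes with a CON signal of 8 to 12. After cyclic loess the Asl difference shrank to -0.43 and lost its call, leaving 5 enzymes lower. In whole glands, fewer cells of a type and less RNA per cell cannot be told apart.

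CGP 39551 alone was set against CON to ask what antagonism during development left behind in the adult gland. Of the 7 enzymes, 6 rose in CGP glands, where 1.62% of all genes tested were called higher, 0.0189% lower and 1.64% in either direction. Gnmt rose 1.96-fold (0.97 ± 0.070, adjusted p = 6.63e-07), Bhmt 1.90-fold (0.93 ± 0.070, adjusted p = 8.21e-07) and Cps1 1.77-fold (0.83 ± 0.054, adjusted p = 3.38e-07). Arg1 rose 1.69-fold (0.76 ± 0.069, adjusted p = 4.79e-06), Mat1a 1.47-fold (0.56 ± 0.053, adjusted p = 7.53e-06) and Cbs 1.45-fold (0.54 ± 0.059, adjusted p = 3.17e-05). Asl was 1.22 times the CON signal (0.29 ± 0.065, adjusted p = 0.0234) and was under the fold minimum. The median of the 7 was 0.76, beside 2.33e-05 for all genes and 0.01 for genes of like CON signal. Otc entered the fit only through its CGP arrays and was under 6 elsewhere, so its signals are given as a description, with no test of its differences. A fold minimum of 1.8 kept 2 of the 6 calls, Gnmt and Bhmt.

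Both exposures together were set against the CON arrays that the 2 comparisons above also used. Of the 7 enzymes, 6 fell in ASP+CGP glands, where 8.32% of all genes tested were called lower, 6.09% higher and 14.4% in either direction. Cps1, Arg1, Mat1a and Bhmt are among the genes that the publication picked as lower in ASP+CGP on these arrays. The count of 6 is therefore not independent evidence of a direction. Mat1a was 3.41-fold lower (-1.77 ± 0.053, adjusted p = 4.94e-11), the 7th lowest difference of all genes. Cps1 was 2.80-fold lower (-1.49 ± 0.054, adjusted p = 2.00e-10), Bhmt 2.65-fold lower (-1.41 ± 0.070, adjusted p = 3.13e-09) and Arg1 2.47-fold lower (-1.30 ± 0.069, adjusted p = 5.84e-09). Gnmt was 2.34-fold lower (-1.22 ± 0.070, adjusted p = 1.40e-08) and Asl 1.64-fold lower (-0.71 ± 0.065, adjusted p = 2.13e-06). Cbs differed by -0.40 ± 0.059 (adjusted p = 6.74e-05), under the fold minimum, and by -0.12 (adjusted p = 0.103) after cyclic loess. The median of the 7 was -1.30, beside -0.17 for all genes and -0.31 for genes of like CON signal. After cyclic loess the Asl difference was -0.37 and lost its call. Of the genes called in this comparison, 42.3% were called higher, against 60.9% after cyclic loess and 87.4% after centring each array on its median; under centring 6 enzymes were called lower and under loess 5.

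**Figure D2:**
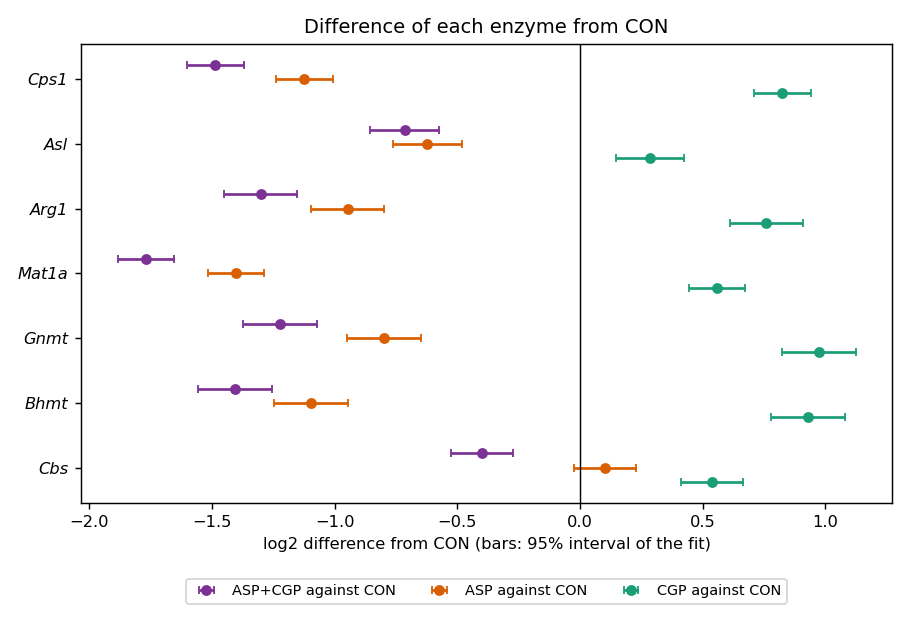
Log2 difference from CON (x axis) of each of the 7 enzymes with a mean of at least 6 in every group (y axis) in ASP+CGP, ASP and CGP, with the 95% interval of the limma fit as bars. Otc is not drawn, because only its CGP mean reached 6. The 6 enzymes other than Cbs lie left of zero in ASP+CGP and ASP and right of it in CGP; Cbs lies at 0.10 in ASP and -0.40 in ASP+CGP.

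ASP+CGP was also set against CGP, which gives the aspartame difference in mice that had received CGP 39551 and shares no array with ASP against CON. All 7 enzymes fell in ASP+CGP glands relative to CGP glands, where 11% of all genes tested were called lower, 8.57% higher and 19.5% in either direction. Bhmt was 5.04-fold lower (-2.33 ± 0.070, adjusted p = 3.11e-12), Mat1a 5.02-fold lower (-2.33 ± 0.053, adjusted p = 4.70e-13) and Cps1 4.96-fold lower (-2.31 ± 0.054, adjusted p = 4.70e-13). Gnmt was 4.58-fold lower (-2.20 ± 0.070), Arg1 4.18-fold lower (-2.06 ± 0.069), Asl 2.00-fold lower (-1.001 ± 0.065) and Cbs 1.91-fold lower (-0.93 ± 0.059), with adjusted p between 6.09e-12 and 2.29e-08. The median of the 7 was -2.20, beside -0.18 for all genes and -0.32 for genes of like CON signal.

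The interaction subtracts the ASP against CON difference from the ASP+CGP against CGP difference. It was called lower for 6 of the 7 enzymes, where 15.5% of all genes tested were called lower, 9.02% higher and 24.6% in either direction. It was -1.40 ± 0.0996 for Gnmt (adjusted p = 3.23e-08), -1.24 ± 0.099 for Bhmt (adjusted p = 1.24e-07), -1.19 ± 0.077 for Cps1 (adjusted p = 1.16e-08) and -1.12 ± 0.098 for Arg1 (adjusted p = 3.28e-07). It was -1.04 ± 0.083 for Cbs (adjusted p = 1.27e-07) and -0.93 ± 0.075 for Mat1a (adjusted p = 1.41e-07). For Asl it was -0.38 ± 0.092 (adjusted p = 0.00379), under the fold minimum. The median of the 7 was -1.12, beside -0.03 for all genes and -0.13 for genes of like CON signal. Cbs was thus called in the interaction but not in ASP against CON.

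**Figure D3:**
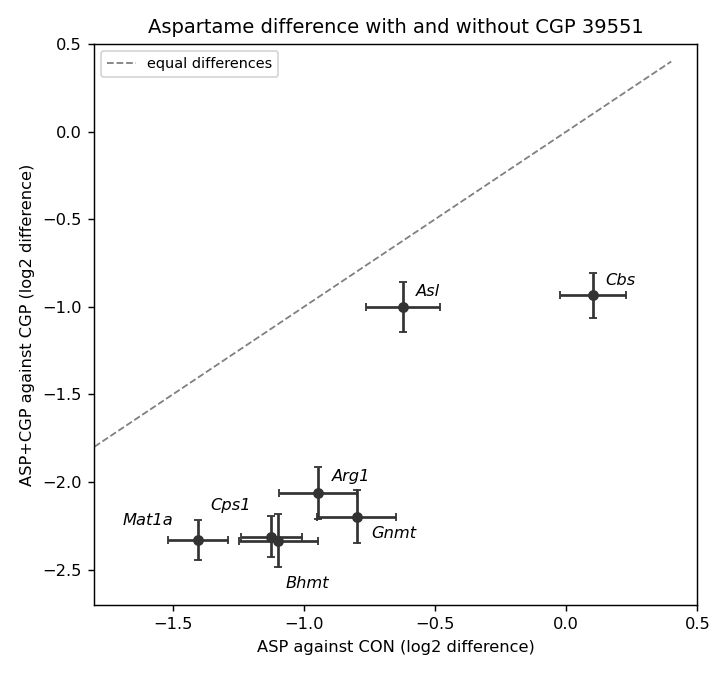
Log2 difference of ASP+CGP against CGP (y axis) beside that of ASP against CON (x axis) for the 7 enzymes with a mean of at least 6 in every group, with 95% intervals of the limma fit as bars and a dashed line of equal differences. All 7 points lie under the line, and Cbs is at 0.10 on the x axis and -0.93 on the y axis.

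ASP+CGP was last set against ASP, to ask what CGP 39551 changed in mice that received aspartame. In ASP+CGP against ASP, 1 of the 7 enzymes was called lower, where 13.3% of all genes tested were called lower, 6.55% higher and 19.9% in either direction. That enzyme was Cbs, 1.41-fold lower (-0.50 ± 0.059, adjusted p = 5.76e-06), close to the fold minimum of 1.4. The call was lost after centring the arrays (-0.35), after cyclic loess (-0.39), and without ASP replicate 3 (-0.46), ASP+CGP replicate 2 (-0.48) or ASP+CGP replicate 3 (-0.48). Cps1 differed by -0.36 ± 0.054, Arg1 by -0.36 ± 0.069, Mat1a by -0.37 ± 0.053, Gnmt by -0.43 ± 0.070 and Bhmt by -0.31 ± 0.070, each at an adjusted p of 0.00172 or less but under the fold minimum. Asl differed by -0.09 ± 0.065 (95% interval -0.23 to 0.05, adjusted p = 0.226), and its sign turned to 0.06 after centring or cyclic loess. The median of the 7 was -0.36, beside -0.02 for all genes and -0.11 for genes of like CON signal. The share of called genes that were higher was 32.9%, against 23.3% after cyclic loess and 63.5% after centring.

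Bhmt had 3 probe sets listed with it alone, and they did not move equally. The second probe set followed the first, with a log2 difference of -1.22 ± 0.089 in ASP against CON. The third was dimmer, with signals of 6.16, 6.49 and 6.27 on the ASP+CGP arrays, 6.42, 6.31 and 6.21 on the ASP arrays, 7.27, 7.19 and 7.32 on the CGP arrays and 6.78, 6.59 and 6.402 on the CON arrays. Its ASP+CGP and ASP arrays overlapped each other, and each of these groups also overlapped CON at the lowest CON array (6.402), while the CGP arrays stood above all others. It differed by -0.28 ± 0.099 in ASP against CON (adjusted p = 0.0283), without a call, by 0.67 in CGP against CON (adjusted p = 0.000728, called) and by -0.68 ± 0.14 for the interaction (adjusted p = 0.00141, called).

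Other genes of nitrogen disposal and arginine use numbered 26, of which 22 were tested. In ASP against CON 3 were called higher and 4 lower (median -0.33), in CGP against CON 4 higher and 0 lower (median 0.20), and in ASP+CGP against CON 1 higher and 6 lower (median -0.27). Of all genes tested, 9.81% were called higher and 8.13% lower in ASP. These shares were 1.62% and 0.0189% in CGP, and 6.09% and 8.32% in ASP+CGP. Genes with a CON signal of 8 to 12 had medians of -0.18 in ASP, 0.01 in CGP and -0.31 in ASP+CGP. Slc38a4, an amino acid transporter, was 2.69-fold lower in ASP+CGP, 2.22-fold lower in ASP and 1.78-fold higher in CGP than in CON, and Hal, which starts histidine breakdown, was 2.00-fold lower, 1.95-fold lower and 1.95-fold higher in the same groups. The publication names both among genes it picked on these arrays. Gatm, which uses arginine to begin creatine synthesis, went the other way, with mean signals of 8.32 in ASP+CGP, 11.11 in ASP, 8.36 in CGP and 8.37 in CON, and rose 6.70-fold in ASP (adjusted p = 3.50e-12). Nos1, the neuronal nitric oxide synthase, rose 2.70-fold in ASP and 1.48-fold in ASP+CGP, and Glul, glutamine synthetase, rose 1.46-fold in ASP.

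Agmat was called lower in ASP (1.68-fold) as was Azin2. Oat, Slc7a2, Glud1 and Slc25a13 were called lower in ASP+CGP, and Slc25a13 and Uroc1 higher in CGP. Nags, which makes the activator of Cps1, had means of 6.93 in ASP+CGP, 6.65 in ASP, 7.12 in CGP and 6.93 in CON, without a call against CON. Arg2, the mitochondrial arginase, had means of 5.82, 6.11, 5.58 and 5.62 in the same groups, and only its ASP mean was above 6. Markers of nervous tissue were also high in ASP. All 9 neuron markers and all 6 astrocyte markers were called higher there. However, 2 of the neuron markers, Gad2 and Slc17a6, entered the fit through ASP alone, so their values are a description. In ASP+CGP, where Nos1 was also called higher, 1 neuron marker and 0 astrocyte markers were called higher. Summed linear signals of neuron markers were 3613 to 3921 in ASP+CGP and 17295 to 18406 in ASP. They were 4066 to 4143 in CGP and 4110 to 4232 in CON. Those of astrocyte markers were 1709 to 1770, 10070 to 10893, 2099 to 2256 and 2025 to 2096 in the same groups. The part of nervous tissue in the signals of Gatm, Nos1 and Glul was not tested.

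Other genes of the methionine cycle, transsulfuration, betaine supply and folate numbered 28, of which 25 were tested. In ASP against CON 0 were called higher and 7 lower (median -0.32), in CGP against CON 5 higher and 0 lower (median 0.17), and in ASP+CGP against CON 0 higher and 7 lower (median -0.37). Genes with a CON signal of 8 to 12 had medians of -0.18 in ASP, 0.01 in CGP and -0.31 in ASP+CGP. The shares of all genes called are those given for the nitrogen genes. Cth, which follows Cbs in cysteine synthesis and is named in the publication, was 1.90-fold lower in ASP+CGP, 1.91-fold lower in ASP and 1.47-fold higher in CGP than in CON. Dmgdh and Sardh, which demethylate dimethylglycine and sarcosine, the products of Bhmt and Gnmt, moved the same way: Dmgdh was 1.76-fold lower, 1.803-fold lower and 2.17-fold higher, and Sardh 1.56-fold lower, 1.501-fold lower and 1.73-fold higher. Bhmt2, a relative of Bhmt, and Pemt, which methylates phosphatidylethanolamine, were called lower in ASP+CGP and ASP and higher in CGP. Nnmt, a nicotinamide methyltransferase, was called lower in ASP+CGP and ASP, Aldh1l1 of folate metabolism in ASP+CGP and Shmt1 in ASP. The interaction was called lower for 8 of the 25 and for 7 of the 22 nitrogen genes, and higher for 0 of each. Of all genes tested, 15.5% were called lower for the interaction and 9.02% higher. Ahcy, which hydrolyses S-adenosylhomocysteine, was not analysed here, because its probe sets are listed with a second gene.

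**Figure D4:**
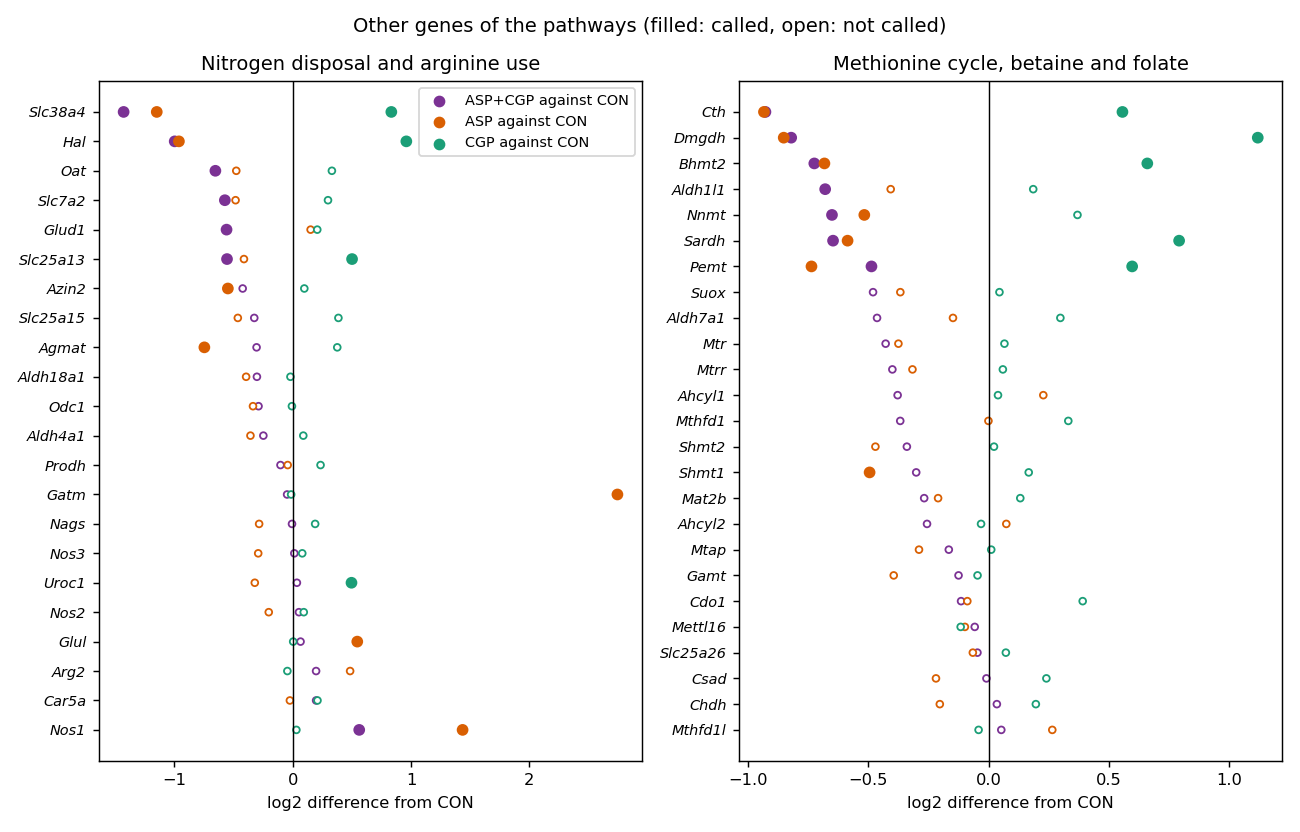
Log2 difference from CON (x axis) of the other nitrogen and arginine genes (left, 22 genes) and the other methionine, betaine and folate genes (right, 25 genes), in ASP+CGP, ASP and CGP; filled points were called and open points were not. Gatm in ASP, at 2.74, lies far to the right of the other genes, and the called CGP points all lie right of zero.

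Hepatocyte markers moved in the same directions as the enzymes. Of 22 tested markers of 26 listed, 20 were called lower in ASP against CON, 19 higher in CGP against CON and 22 lower in ASP+CGP against CON, with median differences of -1.09, 0.75 and -1.48. Of all genes tested, 8.13% were called lower in ASP, 1.62% higher in CGP and 8.32% lower in ASP+CGP. The publication names most of these markers among genes it picked on these arrays. Their summed linear signal was 16875 to 18078 on ASP+CGP arrays, 22959 to 23135 on ASP arrays, 63232 to 65264 on CGP arrays and 40921 to 42356 on CON arrays, and no marker was under 6 on any array except 1 on each ASP+CGP array. Alb, the serum albumin gene of hepatocytes, had means of 12.42 in ASP+CGP, 12.68 in ASP, 13.64 in CGP and 13.15 in CON. It was called lower in ASP+CGP (-0.74) and higher in CGP (0.49), and differed by -0.47 in ASP without a call. All 22 markers were also called lower in ASP+CGP against CGP (median -2.27) and in the interaction (median -1.18). By array, the median difference of the 7 enzymes from the CON mean lay between -1.44 and -1.25 in ASP+CGP, between -0.96 and -0.93 in ASP, between 0.75 and 0.77 in CGP and between -0.04 and 0.03 in CON. That of the hepatocyte markers lay between -1.52 and -1.40, between -1.12 and -1.03, between 0.75 and 0.79 and between -0.02 and 0.03 in the same groups. The part of liver RNA in the differences of the enzymes was not tested.

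Markers of the gland and of its neighbours were counted in the same way, and the shares of all genes called are those given above. Of 10 adrenal cortex markers, 3 were called lower in ASP, and 0 in either direction in ASP+CGP and CGP (medians of -0.23 in ASP, -0.09 in ASP+CGP and -0.03 in CGP). Of 8 tested chromaffin cell markers, 1 was called lower in ASP+CGP, 2 in ASP and 0 in CGP. Of 5 tested kidney markers, 3 were called higher in ASP+CGP (median 0.50), 1 in ASP and 0 in CGP. Of 5 tested myeloid markers, 2 were called lower in ASP and 0 in ASP+CGP and CGP. All 5 tested oligodendrocyte markers were called higher in ASP and 0 of them in ASP+CGP and CGP. Of 5 tested adipocyte markers, 1 was called lower in ASP+CGP and 1 in ASP, and of 3 tested pancreas markers 1 was called higher in ASP+CGP. However, 2 of these pancreas markers and 1 of the kidney markers had a mean under 6 in at least 1 group. Their counts may thus rest on signals treated as not measured. Actb differed from CON by 0.05 in ASP+CGP, 0.0049 in ASP and 0.04 in CGP, without a call. Among markers of zones within the liver lobule, 3 of 4 tested periportal markers were called lower in ASP+CGP and in ASP and 3 higher in CGP; the list holds Hal, and the urea cycle is a periportal pathway. Of the 7 pericentral markers, 3 were called lower in ASP+CGP, 2 were called higher and 3 lower in ASP, and 3 were called higher in CGP, and the list also holds genes on other lists. The 2 called higher in ASP were Slc1a2, a glutamate transporter that is also on the astrocyte list (log2 difference 3.64 in ASP, and 0.50 in CGP, called in both), and Glul.

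**Figure D5:**
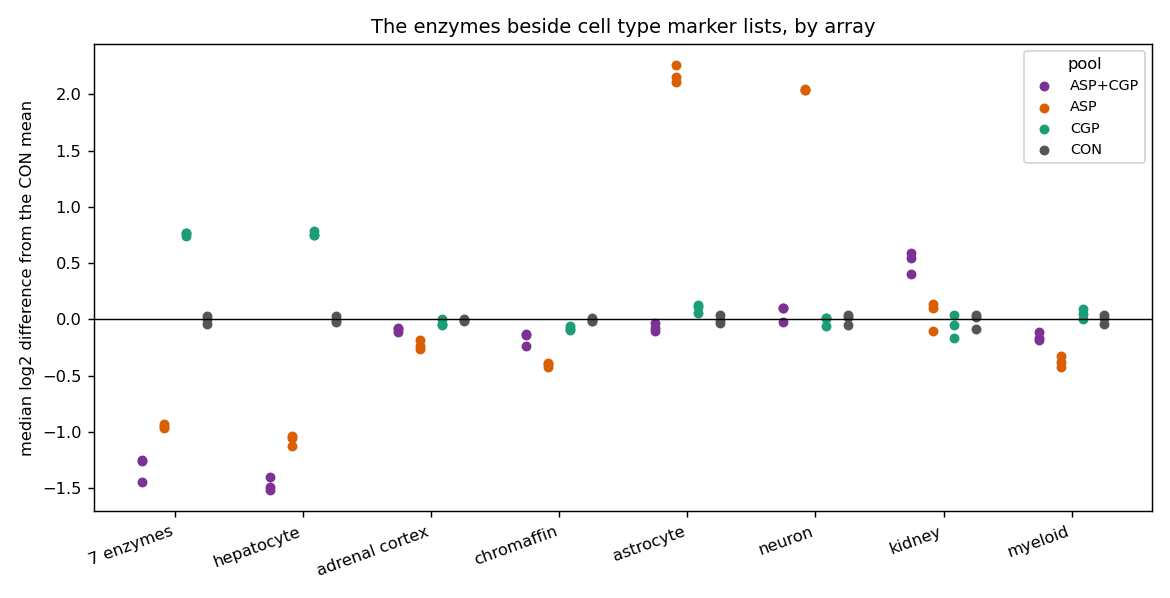
Median log2 difference from the CON mean (y axis) of the 7 enzymes and of cell type marker lists (x axis), with 1 point for each array and pools in the order ASP+CGP, ASP, CGP, CON. The enzymes and the hepatocyte markers lie low in ASP+CGP and ASP and high in CGP, while astrocyte and neuron markers lie high in ASP alone.

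The 6 enzymes other than Cbs and Otc varied together over the arrays. Pearson's r over the 12 arrays, which come from only 4 pools and share their normalisation, was 0.972 to 0.997 over their 15 pairs, and with Cbs the 21 pairs reached down to 0.780. The genes with the most similar pattern to Cps1 among all genes tested were Mettl7b (0.9996), Plg (0.9992) and Slc38a4 (0.999). They were Fgg (0.9984), Ahsg (0.998) and Gem (0.9976) for Mat1a, Pzp (0.9973), Cideb (0.9969) and Cyp8b1 (0.9968) for Arg1, and Mug1 (0.9935), Dbt (0.9928) and Gem (0.9927) for Asl. For Gnmt they were Cyp2d26 (0.9969), Igfbp2 (0.9964) and Fbp1 (0.9964), and for Bhmt Nat8f2 (0.9985), Ces3a (0.9977) and Slc38a4 (0.9974). Plg, Fgg and Ahsg are also on the hepatocyte marker list. The genes nearest to Cbs were Cyp4f15 (0.985), Slc6a12 (0.9825) and Bbox1 (0.9738). Those nearest to Otc were Hsd17b6 (0.9869), Slco1a1 (0.9821) and Slc2a2 (0.982). Only the CGP mean of Otc reached 6, so its r values rest largely on signals treated as not measured and show no shared pattern over the pools.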

How the data were processed

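The authors deposited log2 signals, 1 for each probe set and array, made from Affymetrix Mouse Gene 1.0 ST arrays with Partek and RMA, per the labels, which give no version. The annotation gives a single gene symbol for 17710 of the 26533 probe sets, several for 1077 and none for 7746. The brightest single-symbol probe set over the 12 arrays stood for a gene. Of 16244 genes, 344 stayed under a mean of 6 in all groups and were dropped, and 15900 were tested. A mean for each of the 4 groups was fitted with limma 3.58.1 in R 4.3.3 (data.table, version 1.17.8), with empirical Bayes moderation and Benjamini-Hochberg adjustment within a contrast. Calls needed an adjusted p under 0.05 and a fold of at least 1.4. Counts, tests and medians of enzymes leave Otc out, because it passed the filter through CGP alone. Promoters were searched with Python 3.11.15 and pandas 2.3.3, and figures drawn with matplotlib 3.10.9.

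The enzymes and gene lists were chosen with earlier results of these data known. Named genes are the enzymes, up to 6 called genes of each pathway list with the largest differences, Nags, Arg2, Ahcy, Cth and Glul, the 3 genes most correlated with each enzyme, and Alb, Cyp11a1, Th and Actb; other called pathway genes were named after their values were seen. No column belonged to other samples. Array signals have no read depth, so precision depends on how many arrays were run. The fit was also run on simulated data with independent noise on each array and changes set in ASP alone. That simulation held no difference between pools and no shift in scaling, so it cannot address those limits. Alternatives covered the filter, scaling, moderation, arrays in the fit, array weights, replicate block, fold minimum, adjustment, probe set and each array left out.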

Additional observations from a re-analysis of the deposited data

Results flagged for a closer look

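The aspartame difference in the presence of CGP 39551 differed from that without it, by the limma interaction, in 6 of the 7 enzymes with a mean of at least 6 in every group, where 24.6% of all genes tested were called for the interaction and 15.5% were called lower. The log2 interaction was -1.40 for Gnmt, -1.24 for Bhmt, -1.19 for Cps1, -1.12 for Arg1, -1.04 for Cbs and -0.93 for Mat1a. For these enzymes other than Cbs, ASP+CGP lay further under CGP than ASP lay under CON; for Cbs, ASP+CGP lay under CGP and ASP was not called against CON. All 22 hepatocyte markers were called lower for the interaction too, and their part was not tested.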

How the results depend on the processing

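Of the comparisons of the 7 enzymes, the counts called lower in ASP against CON (6), lower in ASP+CGP against CON (6), lower in ASP+CGP against CGP (7) and lower in the interaction (6) stayed within 1.5 times under every alternative run, and were 6, 6, 7 and 6 whichever array was left out. At a fold minimum of 1.8, Asl and Gnmt lost their calls in ASP against CON, and Asl lost its call in ASP+CGP against CON. The count called higher in CGP against CON was 6 and fell to 2 at a fold minimum of 1.8. The count called lower in ASP+CGP against ASP was 1; it was 0 after centring the arrays on their medians, 0 after cyclic loess, 0 at a fold minimum of 1.8 and 6 with no fold minimum, and 0 to 1 over the fits without 1 array. With the replicate number as a block, these counts were 6 lower in ASP, 6 higher in CGP, 6 lower in ASP+CGP, 1 lower in ASP+CGP against ASP, 7 lower in ASP+CGP against CGP and 6 lower in the interaction. Deviations of same-numbered arrays from their group means correlated at -0.15 to 0.379 over 18 pairs (median 0.082), and 8 of these were over 0.1. For differently numbered arrays the range was -0.386 to 0.281 over 36 pairs (median -0.072), and 9 were over 0.1. Whether arrays of the same number share a source of spread was not tested.

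Over all settings of these 7 enzymes taken singly, 1065 values kept their direction and side of the threshold, 8 gained a call and 17 lost one. In 2 settings, centring and cyclic loess, the sign of Asl in ASP+CGP against ASP turned without a call. Bhmt lost its calls in ASP and ASP+CGP against CON (-0.28 and -0.29) when its dimmest probe set was used, an alternative chosen after seeing the data. Of called genes, 54.7% were higher in ASP against CON (80.1% after cyclic loess), 43.9% in ASP+CGP against CGP (54.4% after loess, 85% after centring) and 36.7% in the interaction (27.1% after loess, 66.1% after centring). The cause of these shifts was not tested. With 1 pool a group, precision is limited to the spread between arrays.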
